A study of Mus musculus with 4 samples.

Results

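Exosomes released by visceral white fat (vWAT-Exos) and by brown fat (BAT-Exos) of mice on a low-fat diet (LFD) were compared for the microRNAs (miRNAs) they carried. Of 1482 different sequences listed for the series, 697 carried a mouse miRNA name. The comparison covers the 482 of these whose norm value reached 10 in 1 or both of the LFD libraries, with each sequence counted once. The mice of both groups were wild-type C57BL/6 (B6) animals, given as 6 weeks old and fed over 4 months, and by the labels the groups differed in the depot only: the library labelled LFD_WT_WAT, whose tissue the study calls visceral, and the library labelled LFD_WT_BAT. Chopped tissue had been kept in culture medium, and vesicles were collected from that medium by differential and ultracentrifugation, so that any cell type of the explant could contribute. There was 1 library for each depot, and whether it held material of several mice was not given in the sources used here. No replicate error exists for this pair, and no p-value was drawn from it. The libraries of the same 2 depots on a high-fat diet (HFD) are given beside the LFD values as a second pair.

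miRNAs are short RNAs that guide Argonaute proteins to messenger RNAs, mainly through their seed, bases 2 to 8 counted from the 5′ end. Each precursor hairpin yields a 5p and a 3p strand, and usually 1 of them, the guide, is kept while the other, the passenger, is degraded. White fat stores lipid and houses many immune cells, whereas brown fat burns lipid in mitochondria and arises from precursors close to those of skeletal muscle. Both depots load miRNAs into vesicles that other tissues take up.

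Groups of miRNAs that were higher in vWAT-Exos by norm value and by share included miR-196a and miR-196b of the Hox gene clusters, both strands of the blood cell miRNA miR-142a, miR-212 and the abundant miR-21a. In BAT-Exos they included the miR-378 family and 2 genomic clusters, miR-193b with miR-365 and miR-183 with miR-96 and miR-182. The mature sequences of selected miRNAs are shown from the RefSeq mouse table (GRCm38.p6), with the seed in capitals. The miR-378 family and miR-150-5p are not shown, as miR-150-5p and the strands of miR-378a had no match by name there. For vWAT-Exos, the first 2 share a seed and come from Hox clusters, the next 2 are both strands of 1 hairpin, and the last 2 share their seed and their transcript but not the size of their difference.
miR-196a-5p: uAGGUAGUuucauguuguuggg
miR-196b-5p: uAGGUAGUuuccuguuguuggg
miR-142a-5p: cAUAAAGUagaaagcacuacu
miR-142a-3p: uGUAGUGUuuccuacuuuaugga
miR-21a-5p: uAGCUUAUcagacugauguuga
miR-155-5p: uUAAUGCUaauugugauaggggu
miR-212-3p: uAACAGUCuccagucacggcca
miR-132-3p: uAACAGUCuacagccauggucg

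For BAT-Exos, miR-193b-3p and miR-193a-3p share a seed, miR-96-5p, miR-182-5p and miR-183-5p come from 1 transcript, and the 3 miR-30 members have 1 seed. The X-linked miR-351-5p has the seed of miR-125b-5p, which differed by less than 2-fold by norm value and was 2.67-fold higher in vWAT-Exos as a share.
miR-193b-3p: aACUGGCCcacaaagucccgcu
miR-193a-3p: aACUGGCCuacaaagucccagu
miR-365-3p: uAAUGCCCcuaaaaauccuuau
miR-96-5p: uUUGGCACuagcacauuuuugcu
miR-182-5p: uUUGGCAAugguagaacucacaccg
miR-183-5p: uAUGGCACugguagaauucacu
miR-30a-5p: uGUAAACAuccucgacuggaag
miR-30c-5p: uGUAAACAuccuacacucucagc
miR-30e-5p: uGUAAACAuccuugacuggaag
miR-322-5p: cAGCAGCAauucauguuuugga
miR-503-5p: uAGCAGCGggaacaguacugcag
miR-351-5p: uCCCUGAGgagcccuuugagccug
miR-125b-5p: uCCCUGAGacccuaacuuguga

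Of the sequences the table lists for these names and for the strands of let-7d shown further on, 11 of 23 were identical to RefSeq and 12 differed in length at an end. The entry of miR-142a-5p began 2 bases earlier than RefSeq, which places other bases at positions 2 to 8. As the table writes it, with T for U and the bases 2 to 8 in capitals, it reads as follows.
miR-142a-5p as listed: cCCATAAAgtagaaagcact

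The norm value is the normalized count the authors gave for each miRNA in each library. It summed to 2585590 in LFD vWAT-Exos and 5650701 in LFD BAT-Exos, a ratio of 2.19, so that the same miRNA can be higher in BAT-Exos by norm value and higher in vWAT-Exos as a share of its library. Every difference was therefore read on 3 scales: the norm value, the share of the library's total, which shifts every log2 ratio of vWAT over BAT up by 1.13, and the norm value centred on the median ratio, which shifts it up by 0.19. Judged by read numbers carried in the names of predicted entries, the totals stand for about 1898620 and 6846014 reads. Folds carry a 95% interval from the exact binomial split of these approximate reads, which covers counting error only. Members just inside the floor of 10 were miR-701-5p and miR-18a-3p at 10.7 in BAT-Exos, and just outside it lay miR-1981-3p and miR-205-3p at 9.90.

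Among the 303 members that reached 100 in 1 or both of the libraries, 71 (23.4%) were at least 2-fold higher in vWAT-Exos by norm value and 89 (29.4%) at least 2-fold higher in BAT-Exos. As shares of the library totals, 148 (48.8%) were higher in vWAT-Exos and 40 (13.2%) in BAT-Exos. The balance of calls therefore turned with the scale, from 44.4% of calls on the vWAT side by norm value to 78.7% by share and 52.4% when centred. All 71 vWAT calls and 40 of the 89 BAT calls held on each of the 3 scales, which are 23.4% and 13.2% of the 303. With all 482 members, 132 (27.4%) were higher in vWAT-Exos and 146 (30.3%) in BAT-Exos by norm value. The most abundant sequence of each library, miR-21a-5p and miR-378a-3p, held 17.2% and 37.3% of its total.

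**Figure D1:**
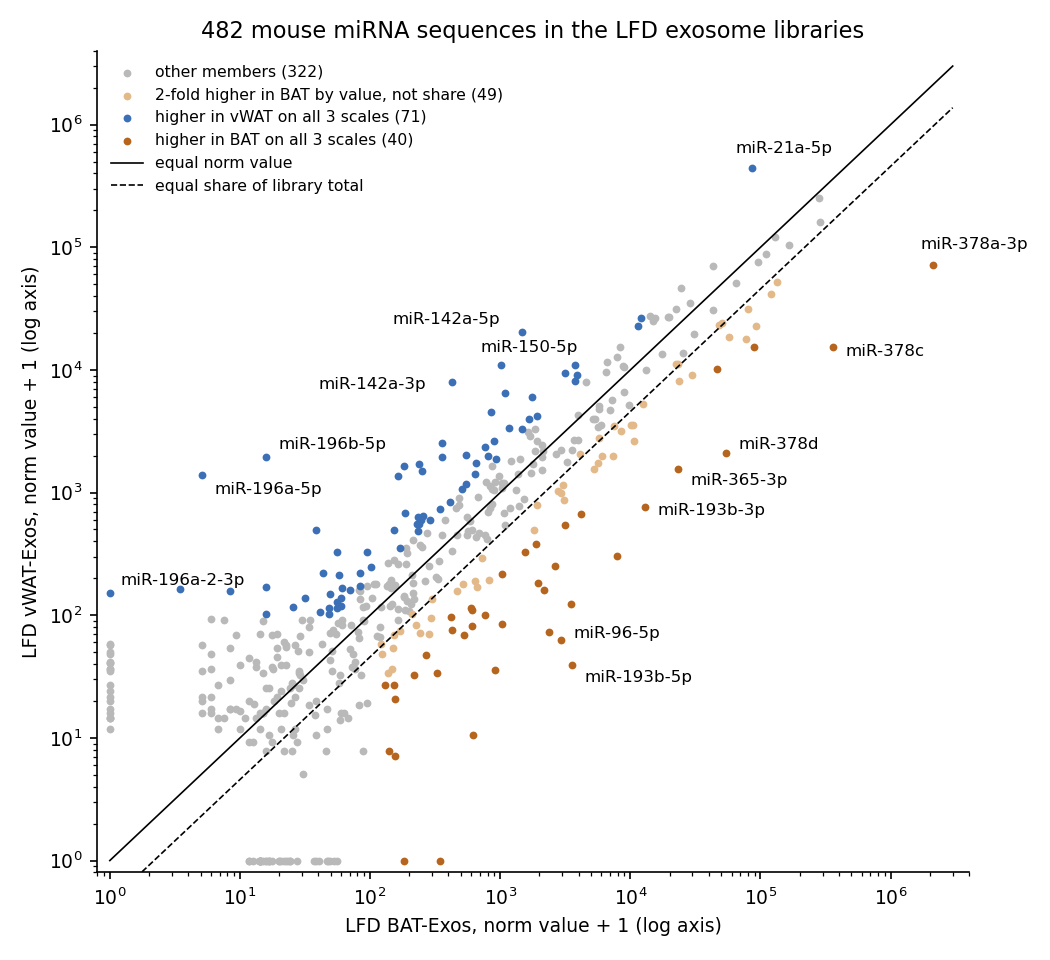
Norm value plus 1 of each of the 482 members in LFD BAT-Exos (x axis, log) and LFD vWAT-Exos (y axis, log), 1 library each. Blue points are the 71 members called higher in vWAT-Exos and dark brown points the 40 called higher in BAT-Exos on all 3 scales. The solid line marks equal norm values and the dashed line equal shares of the totals, and the other 49 members called higher in BAT-Exos by norm value lie within 2-fold of the dashed line.

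Values of the 482 members in the depots had a Spearman rho of 0.85, a description across miRNAs, which are not independent replicates. The most abundant miRNAs were largely common to both. miR-29a-3p, which targets collagen mRNAs, ranked 2 in vWAT-Exos with 253191 (9.79% of the total) and 4 in BAT-Exos with 282796 (5.00%), and differed by less than 2-fold on both scales. miR-22-3p ranked 3 in each, at 159301 in vWAT-Exos (6.16%) and 286228 in BAT-Exos (5.07%). miR-23a-3p, whose letters include those of the miR-23b-3p entry, and miR-99a-5p, of a family that restrains mTOR, were at 121749.95 against 128769 and 76269 against 94971, and miR-23a-3p was 2.07-fold higher in vWAT-Exos as a share. miR-21a-5p, a miRNA widely induced in inflamed and fibrotic tissue, stood at 443553 in vWAT-Exos and 86674 in BAT-Exos, 5.12-fold higher in vWAT-Exos by norm value (interval 5.08 to 5.15) and 11.2-fold as a share. It ranked 1 in vWAT-Exos and 13 in BAT-Exos. miR-378a-3p, encoded in an intron of the mitochondrial coactivator gene Ppargc1b, stood at 71290 in vWAT-Exos and 2108530 in BAT-Exos. That is 29.6-fold higher in BAT-Exos by norm value (interval 29.3 to 29.8) and 13.5-fold as a share, and even so it ranked 8 in vWAT-Exos.

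**Figure D2:**
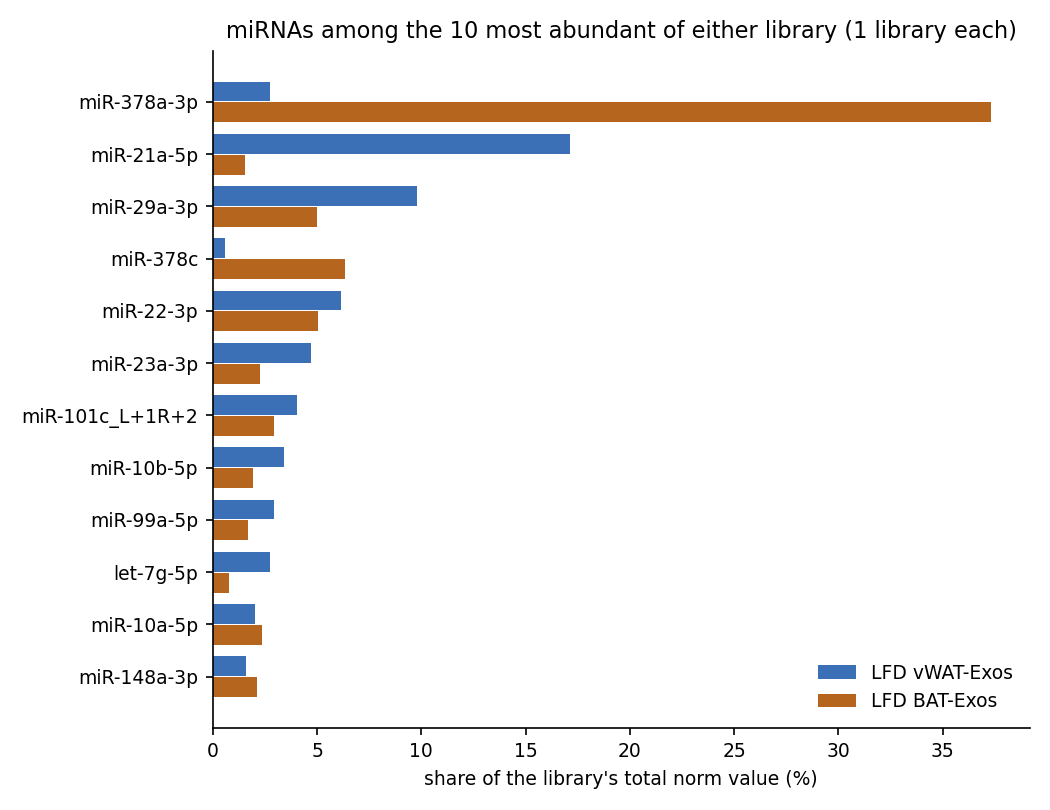
Share of the library's total norm value (x axis, percent) of the 12 miRNAs that rank among the 10 most abundant of either LFD library, with 1 bar for vWAT-Exos and 1 for BAT-Exos (1 library each, no error). miR-378a-3p holds 37.3% of BAT-Exos and 2.76% of vWAT-Exos, and miR-21a-5p holds 17.2% of vWAT-Exos and 1.53% of BAT-Exos.

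The miRNAs of the Hox clusters lie between the genes that set position along the body axis, and fat depots keep depot-specific Hox expression. miR-196a-5p had a norm value of 1392 in vWAT-Exos and 4.13 in BAT-Exos, or about 1022 against 5 reads. This was a 337-fold difference by norm value (interval 144 to 1041) and a 737-fold difference as a share. The sequence has 2 precursors, on chr11:96265187-96265208, outside any annotated gene other than miRNAs, and on chr15:102973365-102973386, in an intron of Hoxc5. miR-196b-5p, at chr6:52230129-52230150 in an annotated exon of Hoxa9, stood at 1947 and 14.9, a 131-fold difference (interval 82.6 to 222). The passenger strand miR-196a-2-3p was at 151 in vWAT-Exos and listed at 0 in BAT-Exos. On HFD, miR-196a-5p was at 1436 and 4.94 and miR-196b-5p at 2005 and 6.35, so that in both pairs the vWAT value was more than 100 times the BAT value.

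Other miRNAs of the Hox clusters did not share this size of difference. miR-10b-5p was at 87706 in vWAT-Exos and 109329 in BAT-Exos, and miR-10a-5p at 52374 and 133868, of which miR-10a-5p was 2.56-fold higher in BAT-Exos by norm value and 1.17-fold as a share. miR-615-3p stood at 411 and 213, under 2-fold by norm value but with a log2 ratio of 2.08 as a share. On HFD miR-615-3p was at 268 in vWAT-Exos and 567 in BAT-Exos. Of the 7 listed Hox cluster miRNAs that reached 100, 3 were higher in vWAT-Exos by norm value and 1 in BAT-Exos. The 3 were miR-196a-5p, miR-196b-5p and the passenger strand miR-10b-3p. By share the counts were 4 and 0. Of all 303 miRNAs, 23.4% and 29.4% were called for vWAT-Exos and BAT-Exos by norm value, and 48.8% and 13.2% by share. The median log2 ratio of these 7 listed miRNAs was 0.95 by norm value, beside -0.19 over all 303 miRNAs. The list and its median left out miR-196a-2-3p, at 151 in vWAT-Exos and 0 in BAT-Exos, which was also called for vWAT-Exos.

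Of the leukocyte miRNAs, miR-142a is made almost only in blood cells and in nearly all of them, and miR-150 mainly in mature lymphocytes. miR-142a-5p stood at 20409 in vWAT-Exos and 1469 in BAT-Exos, a 13.9-fold difference (interval 13.2 to 14.6), and miR-142a-3p at 7920 and 428, an 18.5-fold difference (interval 16.9 to 20.3). miR-150-5p was at 10998 and 1020, 10.8-fold higher in vWAT-Exos (interval 10.2 to 11.5). As shares the 3 differed by 23.6-fold to 40.5-fold. On HFD they stood at 25079 against 650, 5247 against 66.3 and 13079 against 1140, with vWAT-Exos higher in each. miR-223-3p, a miRNA of granulocytes and macrophages, went the other way by norm value, at 680 in vWAT-Exos and 1070 in BAT-Exos, and was 1.39-fold higher in vWAT-Exos as a share, so it passed 2-fold on neither. Of 5 listed leukocyte miRNAs that reached 100, 4 were higher in vWAT-Exos and 0 in BAT-Exos, by norm value and by share. Over all 303 miRNAs, 23.4% were called for vWAT-Exos by norm value and 48.8% by share. Among the 4, miR-342-3p, at 1881 against 924, lay just past 2-fold by norm value. The median log2 ratio by norm value was 3.43 for these 5 and 1.98 for all 7 listed members. Summed, the 7 members of the list held 1.62% of vWAT-Exos and 0.0877% of BAT-Exos. In bulk explants, fewer cells of a type and less RNA from each cell cannot be told apart.

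miRNAs tied to inflammation were also higher in vWAT-Exos: 6 of 8 by norm value, 8 of 8 by share and 0 in BAT-Exos, with a median log2 ratio of 2.13 by norm value. For comparison, 23.4% of all 303 miRNAs were called for vWAT-Exos by norm value and 48.8% by share. Besides miR-21a-5p the list included its passenger strand miR-21a-3p at 1710 and 239, a 7.17-fold difference (interval 6.31 to 8.18). miR-155-5p, which activated immune cells induce, was at 1493 and 249, a 5.99-fold difference (interval 5.27 to 6.82). miR-212-3p was at 157 and 7.43, a 21.1-fold difference (interval 10.7 to 47.3), whereas its neighbour and seed partner miR-132-3p was at 1226 and 777.5 and passed 2-fold by share alone. miR-146a-5p and miR-146b-5p, which restrain signalling by Toll-like receptors, stood at 27037 against 19982 and 4218 against 1930, of which miR-146b-5p passed 2-fold by norm value. In all, these 8 held 18.6% of vWAT-Exos and 1.95% of BAT-Exos, with miR-21a-5p making up most of both.

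Further miRNAs higher in vWAT-Exos came from several loci. miR-296-3p and miR-298-5p, neighbours at chr2:174267047-174267585 in the imprinted Gnas region, were at 496 against 37.1 and 328 against 54.5. miR-210-3p, the best-known target of hypoxia-inducible factor among miRNAs, was at 6452 against 1081, a 5.97-fold difference. miR-130a-3p, which represses Pparg in cell models, was at 4561 against 847. miR-335-5p, from an intron of the imprinted Mest gene, was at 10952 against 3749, and on HFD at 40820 against 4206. miR-34c-5p, abundant in testis and epididymis, stood at 2541 against 359. It alone of the 5 members of the epididymis and testis list reached 100, and the other 4 entered through their vWAT value. Of these, miR-34b-5p and miR-34c-3p were listed at 0 in BAT-Exos and at 49.0 and 55.8 in vWAT-Exos. The list summed to 0.106% of vWAT-Exos and 0.00647% of BAT-Exos, and the part of such tissue in the other differences was not tested.

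The entry mir-3964-p3 also belonged to the 15 largest differences on the vWAT side, at 163 against 2.48. It shares a run of 18 of its 20 letters with the entry of miR-142a-5p, so reads may be divided between them. miR-147-3p, miR-374b-5p, miR-125b-1-3p and miR-6239 completed that group, with folds by norm value of 11.5, 9.07, 8.37 and 6.88.

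**Figure D3:**
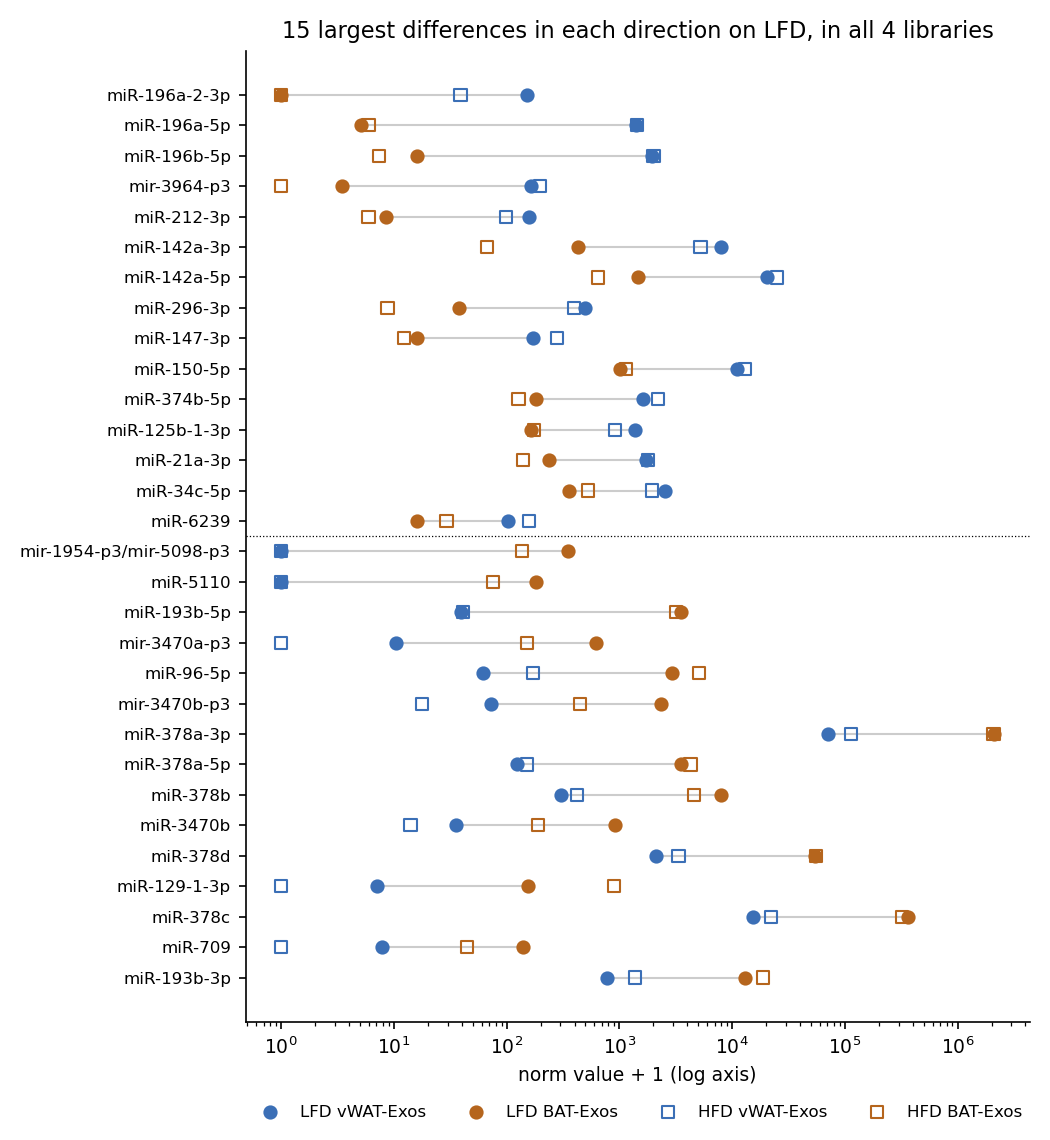
Norm value plus 1 (x axis, log) of the 15 miRNAs with the largest difference in each direction on LFD, those above the dotted line higher in vWAT-Exos and those below it in BAT-Exos. Filled circles are the LFD libraries, joined by a line, and open squares the HFD libraries (1 library each). In each of the 30 the blue and brown symbols keep their order on HFD.

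In BAT-Exos, all 5 entries of the miR-378 family were higher on each of the 3 scales, with a median log2 ratio of -4.71 by norm value and -3.58 by share. miR-378d stood at 2100 in vWAT-Exos and 54664 in BAT-Exos, and miR-378a-5p, the other strand of the miR-378a hairpin, at 123 and 3488, a 28.5-fold difference (interval 23.1 to 35.5). miR-378c was listed at 15295 and 359671, although its letters lie wholly within those of miR-378a-3p and miR-378d, as do those of miR-378b, and such reads cannot be assigned to a single precursor. The family held 3.45% of vWAT-Exos and 44.8% of BAT-Exos. With the most abundant sequence of each library left out of its total, 126 miRNAs were higher in vWAT-Exos and 54 in BAT-Exos.

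miR-193b and miR-365 are cotranscribed at chr16:13449523-13453926 and are required for brown adipocyte differentiation in mouse cell models. miR-193b-5p stood at 38.1 in vWAT-Exos and 3540 in BAT-Exos, a 92.8-fold difference by norm value (interval 64.1 to 140) and a 42.5-fold difference as a share. miR-193b-3p was at 768 and 12951, a 16.9-fold difference (interval 15.5 to 18.4). miR-365-3p, which has a second copy on chr11:79726467-79726488, was at 1570 and 23347, a 14.9-fold difference (interval 14.02 to 15.8). The related miR-193a, also on chromosome 11, was higher in BAT-Exos in both strands, miR-193a-5p at 84.4 against 1027 and miR-193a-3p at 327 against 1559. HFD values were on the same side for each of them, with miR-193b-5p at 40.3 and 3196.

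Of 13 miRNAs listed for brown fat, which include those of the miR-378a, miR-193 and miR-365 loci, 10 were higher in BAT-Exos by norm value, 8 on all 3 scales and 0 in vWAT-Exos, with a median log2 ratio of -2.25. For comparison, 29.4% of all 303 miRNAs were called for BAT-Exos by norm value and 13.2% on all 3 scales. All 13 were below 0 by norm value. As shares, miR-30b-5p, miR-203-3p and miR-32-5p lay on the vWAT side, at log2 ratios of 0.68, 0.26 and 0.14. miR-455-5p, whose precursor promotes brown differentiation in mouse models, stood at 215 against 1034, while miR-455-3p, at 291 against 721, was 2.47-fold higher in BAT-Exos by norm value and 1.13-fold as a share. miR-203-3p and miR-32-5p, other miRNAs of brown fat, were at 1788 against 3266 and 545 against 1080 and stayed under 2-fold. The list was chosen with results of these data known and is no independent evidence of the depot. By norm value, these markers did not go against the label of the BAT library.

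The polycistron of miR-182, miR-96 and miR-183 at chr6:30165918-30169737, known from sensory organs and epithelia, was higher in BAT-Exos throughout. miR-96-5p stood at 61.3 in vWAT-Exos and 2942 in BAT-Exos, a 48.0-fold difference (interval 35.8 to 65.9). miR-182-5p was at 159 and 2175, a 13.7-fold difference (interval 11.3 to 16.6), and miR-183-5p at 109 and 611, a 5.61-fold difference (interval 4.45 to 7.15). The 3 strands of 1 transcript thus differed between depots by unequal amounts. On HFD they were at 171 against 5090, 519 against 3417 and 223 against 801, with BAT-Exos higher in each.

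The cluster of miR-322, miR-503, miR-542 and miR-450 lies on the X chromosome (chrX:53047997-53054349) and slows the cell cycle. By norm value, 6 of its 7 miRNAs reaching 100 were higher in BAT-Exos and 0 in vWAT-Exos. Over all 303 miRNAs, 29.4% were called for BAT-Exos and 23.4% for vWAT-Exos on that scale. As shares, miR-322-3p (0.00611% of vWAT-Exos and 0.00819% of BAT-Exos) and miR-542-3p (0.00184% and 0.00216%) stayed under 2-fold. miR-322-5p stood at 539 in vWAT-Exos and 3125 in BAT-Exos, a 5.80-fold difference (interval 5.22 to 6.44). The neighbouring miR-351-5p was at 181 and 1947, a 10.8-fold difference (interval 9.02 to 12.9), whereas miR-125b-5p of the same seed was at 34949 and 28626. miR-125a-5p, at 11189 and 22566, passed 2-fold by norm value at 2.02-fold and was 1.08-fold higher in vWAT-Exos as a share.

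In the miR-30 family, 4 of 5 guide strands were higher in BAT-Exos by norm value and 2 on all 3 scales, and the family held 2.81% of vWAT-Exos and 5.57% of BAT-Exos. Of all 303 miRNAs, 29.4% were called for BAT-Exos by norm value and 13.2% on all 3 scales. miR-30e-5p stood at 15336 and 88992, a 5.80-fold difference (interval 5.69 to 5.92), and miR-30c-5p at 10092 and 46516, a 4.61-fold difference (interval 4.50 to 4.72). miR-30a-5p was at 22845 and 92978, 4.07-fold by norm value but 1.86-fold as a share. Members with a copy in the same host gene, Nfyc, were miR-30e and 1 of the 2 miR-30c precursors. miR-30b-5p, at 6564 and 8940, did not pass 2-fold, and as a share it lay on the vWAT side at a log2 ratio of 0.68.

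Several miRNAs of other cell types were higher in the BAT library by norm value, among them miR-205-5p and miR-122-5p on all 3 scales. miR-205-5p of squamous epithelium stood at 252 in vWAT-Exos and 2631 in BAT-Exos, and on HFD at 322 and 389, so its difference was seen in the LFD pair only by the 2-fold rule. Of the hepatic list, miR-122-5p was at 114 and 596, whereas miR-192-5p was at 1209 and 909, 2.91-fold higher in vWAT-Exos as a share, and miR-194-5p at 336 and 423. Of 5 striated muscle miRNAs that reached 100, 4 were higher in BAT-Exos by norm value and 0 by share, among them miR-133a-3p at 490 against 1829 and miR-206-3p at 169 against 657. The other, miR-1a-3p, was at 775 against 1383, with a log2 ratio of 0.29 as a share. For comparison, 29.4% of all 303 miRNAs were called for BAT-Exos by norm value and 13.2% by share. The cardiac and slow muscle miRNA miR-208b-3p was at 16.3 and 7.43. The erythroid miR-451a was at 2627 and 10738, 4.09-fold by norm value and 1.87-fold as a share. miR-144-3p and miR-144-5p of the same locus were at 688 against 808 and 108 against 196 on LFD, and on HFD they were higher in vWAT-Exos at 1154 against 142 and 180 against 37.4. Summed, the muscle list made up 0.0603% of vWAT-Exos and 0.0742% of BAT-Exos on LFD and 0.0488% and 0.393% on HFD, and the part of such cells in the depot differences was not tested.

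Entries with little annotation were prominent on the BAT side. The entry shared by mir-1954-p3 and mir-5098-p3 stood at 346 in BAT-Exos and was listed at 0 in vWAT-Exos, and miR-5110 at 181 against 0. mir-3470a-p3, mir-3470b-p3, miR-3470b and miR-709 were higher in BAT-Exos with norm value folds of 64.9, 32.7, 26.0 and 20.5. The miR-3470 genes lie in B1 repeats, which have many genomic copies, so the source locus of such reads cannot be read from the entry. On HFD all 6 were again higher in BAT-Exos, at 43.7 to 443 against 0 to 16.6. miR-129-1-3p, at 6.13 against 153, was also among the 15 largest differences on the BAT side, and its letters lie within those of the more abundant miR-129-2-3p. In all, 36 members were listed at 0 in vWAT-Exos and 21 in BAT-Exos, and no fold was formed for these. Values under about 5 reads made up 31 of 679 values above 0 in vWAT-Exos and 30 of 1001 in BAT-Exos.

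**Figure D4:**
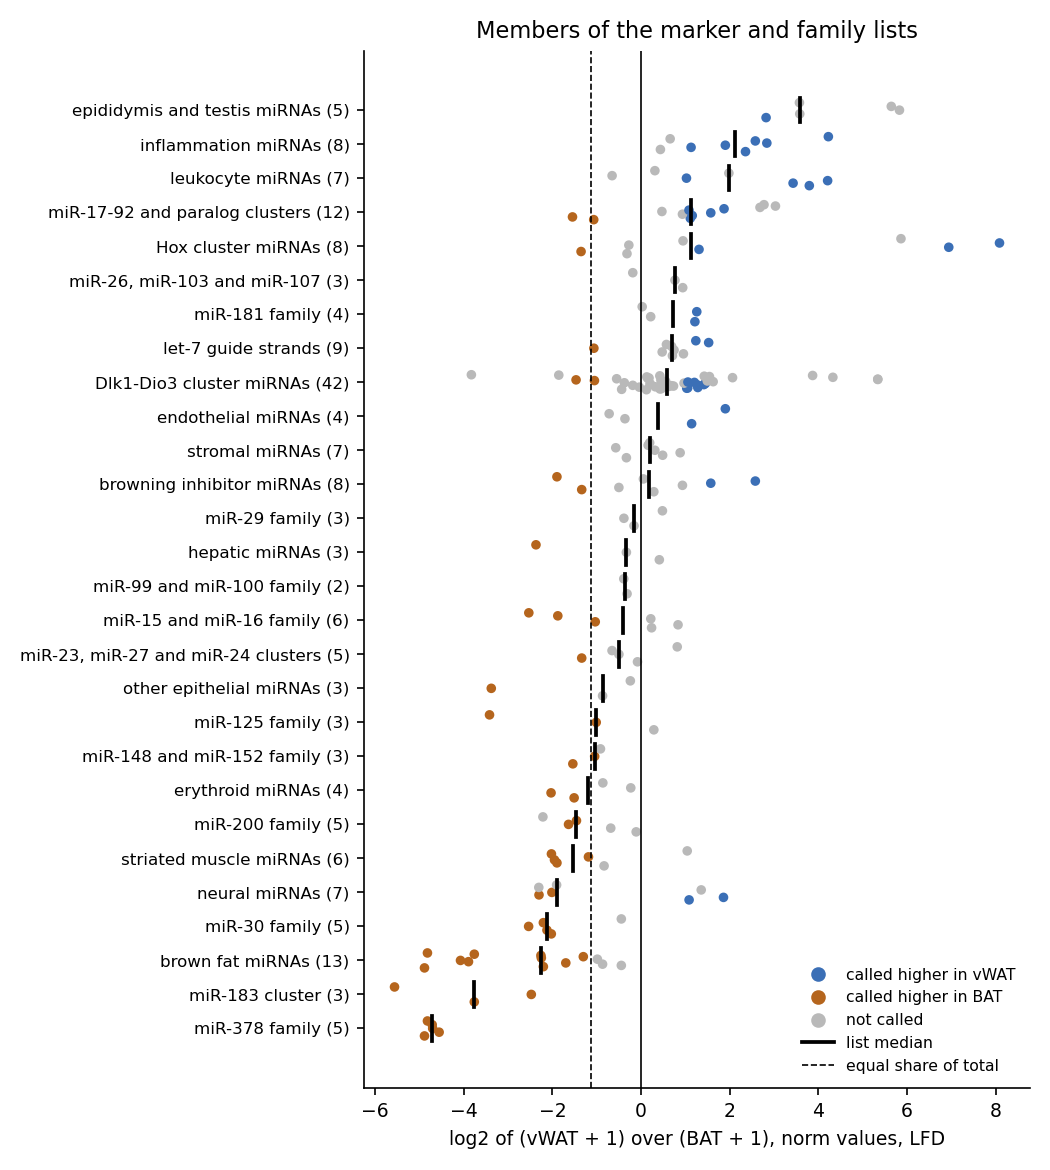
Log2 of vWAT over BAT norm values on LFD, each plus 1 (x axis), for the members of 28 lists of families, clusters and cell types, with the number of members in parentheses. Points are single miRNAs, blue or brown where called and grey where not, short black bars are list medians, the solid line marks equal norm values and the dashed line equal shares. The miR-378 family lies lowest at -4.71. The epididymis and testis list lies highest at 3.58, with 1 of its 5 members reaching 100. The inflammation and leukocyte lists have medians over all their members of 2.13 and 1.98.

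Over all 303 miRNAs the median log2 ratio was -0.19 by norm value and 0.94 by share, and 23.4% and 29.4% of them were called for vWAT-Exos and BAT-Exos by norm value. In the miR-29 family 0 of 3 and in the stromal list (miR-143, miR-145a, miR-199 and miR-214) 0 of 7 passed 2-fold by norm value in either direction, and 1 of 3 and 5 of 7 were higher in vWAT-Exos by share. miR-126a-3p, the main endothelial miRNA, was at 13606 and 17511, 1.29-fold higher in BAT-Exos by norm value and 1.70-fold higher in vWAT-Exos as a share. Its list reached 2 of 4 on the vWAT side through miR-221-3p, at 26595 against 12064, and miR-222-3p, at 2040 against 546. Of 24 listed miRNAs of the imprinted Dlk1-Dio3 region that reached 100, 8 were higher in vWAT-Exos and 2 in BAT-Exos by norm value. By share these counts were 19 and 0. An example is miR-379-5p at 596 against 245. Other strands of the region that reached 100, such as miR-329-5p and miR-382-3p, were not on the list and stayed under 2-fold by norm value. In the miR-17-92 cluster and its paralogs 5 of 9 were higher in vWAT-Exos and 2 in BAT-Exos by norm value, and 7 and 0 by share. miR-20a-5p stood at 8180 against 3787 there, and miR-92a-3p of the same transcript, which has a second precursor on the X chromosome, at 8111 against 23709.6.

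The remaining lists were small, and their counts can be read against the 23.4% and 29.4% called over all 303 miRNAs by norm value and the 48.8% and 13.2% by share. miRNAs known to hold back browning had 2 calls on each side of 8 by norm value, and 5 for vWAT-Exos and 0 for BAT-Exos by share. Among them miR-27b-3p, which represses Prdm16, was at 31492 in vWAT-Exos against 79680 in BAT-Exos, and miR-106b-5p at 2653 against 891. The neural list had 2 calls on each side of 4 by norm value and 2 and 1 by share, with miR-218-5p at 675 against 185 and miR-128-3p at 381 against 1882. The miR-181 family, which tunes lymphocyte signalling, had 2 calls of 4 for vWAT-Exos by norm value and 4 by share, led by miR-181a-5p at 9102 against 3923. The miR-15 and miR-16 family, which restrains the cell cycle, had 3 of 6 for BAT-Exos by norm value, including miR-15a-5p at 2002 against 7364, and 3 for vWAT-Exos and 1 for BAT-Exos by share. miR-148a-3p, at 41562 against 120815, was 1 of 2 calls of 3 for BAT-Exos in its family by norm value, and by share the family had 0 calls.

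By norm value, calls for BAT-Exos were 2 of 4 in the erythroid list, 1 of 3 in the hepatic list, 1 of 3 among other epithelial miRNAs, 2 of 3 in the miR-125 family and 1 of 5 in the clusters of miR-23, miR-27 and miR-24, with 0 for vWAT-Exos in each. By share the calls for vWAT-Exos and BAT-Exos became 0 and 0, 1 and 1, 0 and 1, 1 and 1, and 2 and 0. miR-26 with miR-103 and miR-107 had 0 calls by norm value and 2 of 3 for vWAT-Exos by share, and miR-99 with miR-100 had 0 of 2 on both scales.

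The ratio of the 2 strands of a precursor does not depend on the scale of a library, and it differed between depots for many hairpins. Of 61 precursors whose strands each reached 100 in 1 or both libraries, 37 had a 5p to 3p ratio within 2-fold between vWAT-Exos and BAT-Exos, 24 differed by at least 2-fold and 6 by at least 4-fold. The dominant strand was another one in 3, let-7d, miR-455 and miR-329, and on HFD the ratio moved the same way in each of these, in miR-455 with a log2 difference of vWAT minus BAT of only -0.09. In let-7d the guide led in vWAT-Exos, with let-7d-5p at 9588 and let-7d-3p at 3526, and the passenger led in BAT-Exos, at 6450 and 10554, a 4.45-fold change of the ratio. The strands carry different seeds, shown in capitals.
let-7d-5p: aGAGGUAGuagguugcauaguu
let-7d-3p: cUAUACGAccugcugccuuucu

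In no other let-7 precursor of the 61 did the dominant strand differ. The family represses growth and metabolic genes. Of 9 guide strands, 8 had the higher norm value in vWAT-Exos, and 2 passed 2-fold there and 1, let-7b-5p at 24148 and 50514, in BAT-Exos. Of 8 passenger strand entries, 7 had the higher norm value in BAT-Exos and 6 passed 2-fold, and the other, let-7i-3p, was at 283 against 153. The 8 include variants of let-7a-1-3p, of which 1 lies wholly within the letters of the other, so the same letters can be counted more than once. By share, 8 guides were called for vWAT-Exos and 0 for BAT-Exos, and 1 passenger for each. Of all 303 miRNAs, 23.4% and 29.4% were called for vWAT-Exos and BAT-Exos by norm value, and 48.8% and 13.2% by share. The most abundant guide, let-7g-5p, was at 70563 in vWAT-Exos and 43231 in BAT-Exos. In miR-98, of the same family, the guide was at 555 and 235 and the passenger at 25.9 and 151, which makes a 13.8-fold change of the ratio, the largest of the 61. Beyond let-7, the 5p strand gained on the 3p strand in BAT-Exos for miR-125b-1 (6.86-fold), miR-30e (6.76-fold) and miR-193b (5.51-fold). On HFD the ratio moved in the same direction in all 6 hairpins with at least 4-fold, although the guides of let-7f-2 and miR-125b-1 also come from other precursors.

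**Figure D5:**
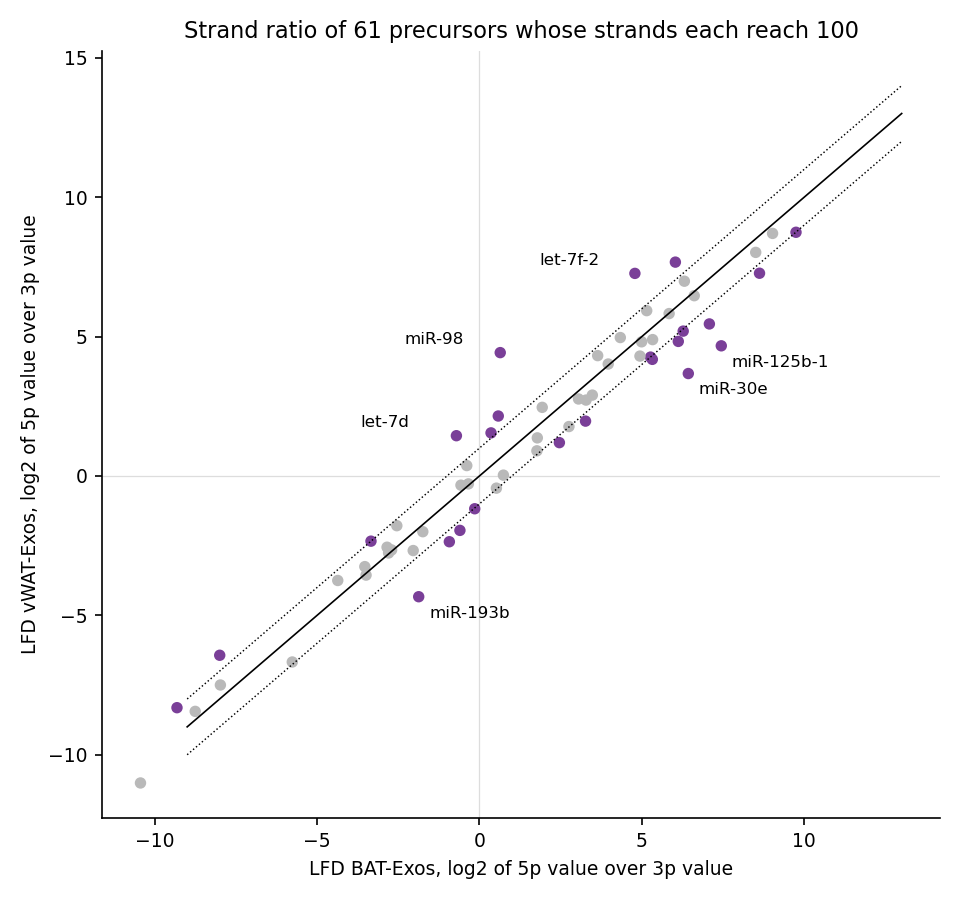
Log2 of the 5p over the 3p norm value of the 61 precursors whose strands each reach 100 in 1 or both LFD libraries, in BAT-Exos (x axis) and vWAT-Exos (y axis). The solid line marks equal ratios and the dotted lines a 2-fold change, and purple points are the 24 precursors outside them. let-7d lies above 0 on the y axis and below 0 on the x axis, the change of its dominant strand.

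Of the 482 members, 394 matched a RefSeq mature miRNA. Among 26 seeds shared by 2 or more members that reached 100, 9 held calls for vWAT-Exos only, 11 for BAT-Exos only, 1 for both (let-7 with miR-98) and 5 held none. The 20 one-sided seeds included 7 with a single call, for which no other outcome was open. Of 32 clusters of precursors no more than 10000 bases apart, 9 held vWAT calls only, 12 BAT calls only, 6 both and 5 none, and 11 of the 21 one-sided clusters had a single call. The motif GGAG, read on the listed strand and known as a signal for loading into exosomes from work in human T cells, was in 51 of 482 members (10.6%), in 8 of the 71 called for vWAT-Exos (11.3%) and in 8 of the 40 called for BAT-Exos (20%). The 40 include entries that share letters, as miR-378b and miR-378c lie within miR-378a-3p and miR-378d. The same letters can thus be counted more than once, and the difference in motif share was not tested. The longer motif CGGGAG, which contains GGAG, was in 2 members, of which 0 were called on all 3 scales.

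The HFD pair served as a second comparison of the same depots from other libraries. Of the 71 miRNAs higher in vWAT-Exos on LFD, 57 were also at least 2-fold higher there on HFD and 67 were above 0, and of the 40 higher in BAT-Exos on all 3 scales, 37 were at least 2-fold higher there on HFD and all 40 were below 0. Over all 303 miRNAs, 94 and 96 passed 2-fold on HFD. Log2 ratios of the pairs had a Spearman rho of 0.86 over the 294 miRNAs above 0 in every library, a description across miRNAs. Of the 71, those on the opposite side of 0 on HFD were miR-188-5p, at 37.9 against 79.7, and, by less than 2-fold, miR-19a-3p, miR-191-5p and miR-350-3p. Of the 89 called for BAT-Exos by norm value they were miR-200c-3p and miR-429-3p of the epithelial miR-200 family, both by more than 2-fold. miR-200c-3p stood at 94.0 in vWAT-Exos and 294 in BAT-Exos on LFD, and at 716 and 41.6 on HFD. miR-200a-3p, at 805 and 869, and miR-200b-3p, at 742 and 1193, did not pass 2-fold on LFD, and on HFD they were at 1936 against 83.3 and 1538 against 153.

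Across all 4 libraries, a depot effect was fitted with diet as an additive term (limma on log2 of the norm value plus 1, 512 miRNAs, 1 residual degree of freedom, Benjamini-Hochberg adjustment). The error of each miRNA comes from the way its depot difference varied between the diets, and not from replicates. limma drew this error toward the spread pooled over the 512 miRNAs. That pooled part had 2.96 degrees of freedom, more than the 1 residual degree of freedom of each miRNA. At an adjusted p under 0.05, 33 miRNAs (6.45%) were higher in vWAT-Exos and 67 (13.1%) in BAT-Exos. Of the 71 and 40 called on LFD on all 3 scales, 18 and 33 passed, and since the LFD libraries enter both, this count is a description. By limma, miR-196a-5p had a log2 effect of 8.002 (SE 0.52, adjusted p = 0.0219), miR-142a-3p 5.25 (SE 0.73, adjusted p = 0.0222) and miR-21a-5p 2.48 (SE 0.52, adjusted p = 0.0481). On the BAT side the limma effects were -6.39 for miR-193b-5p (SE 0.52, adjusted p = 0.0219), -5.23 for miR-96-5p (SE 0.54, adjusted p = 0.0222) and -4.54 for miR-378a-3p (SE 0.54, adjusted p = 0.0222). miR-205-5p, miR-335-5p, miR-210-3p and miR-183-5p did not pass (limma, adjusted p = 0.234, 0.0834, 0.0781 and 0.0676). Both counts fell to 0 without the LFD vWAT library or without the HFD vWAT library, where the diet term was left out. Without the LFD vWAT library 55 and 104 miRNAs, and without the HFD vWAT library 58 and 90, had an unadjusted p under 0.05.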

How the data were processed

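The 4 libraries (TruSeq small RNA, Illumina) were processed by the authors with ACGT101-miR, which removed adapters, low-complexity reads and reads of other RNA families. The only genome build in the submitters' processing notes, GRCh38, is human, although the animals were mice. The deposited signal is a normalized count per miRNA and library (norm value). The sources used here do not give the method of normalization. Each sequence with a mouse name was taken once, under the name with the fewest substitutions. Calls needed a 2-fold difference and 100 in 1 or both libraries. Medians and the depot fit used a pseudocount of 1. limma 3.58.1 (R 4.3.3) fitted the 4 libraries, and Python 3.11.15 with pandas 2.3.3 and scipy 1.17.1 did the rest. The scripts were tested on simulated data. Sequences and positions come from RefSeq (GRCm38.p6), host genes from GENCODE M21.

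The value of 1 read, 1.36 in LFD vWAT-Exos and 0.825 in LFD BAT-Exos, is the commonest ratio of norm value to the number in the name among predicted entries of that library alone (2 of 5 and 127 of 146 entries). At these steps 83.7% and 87.5% of values were whole reads within 0.01, so no count test was run. A value of 100 stands for about 73.4 and 121 reads. Members, lists and tests were chosen with earlier results of these data known. miRNAs were named from the 15 largest differences in each direction on all 3 scales, the 10 most abundant miRNAs of each library, of each list its 4 most abundant members and those past 2-fold, the miRNAs the study followed up, and precursors with the largest change of strand ratio, of which not all are printed. Any other miRNA was named after its values were seen.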

Additional observations from a re-analysis of the deposited data

Results flagged for a closer look

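miR-200c-3p lay on opposite sides of the depots in the 2 diets: its log2 ratio of vWAT over BAT on LFD was lower than that on HFD, with a difference of -5.75. miR-429-3p did the same with a difference of -3.28, at 81.7 in vWAT-Exos and 226 in BAT-Exos on LFD and at 156 and 44.5 on HFD. With 1 library per group the difference was not tested, and as shares of the totals neither passed 2-fold on LFD.

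Entries without a mouse miRNA name, which the comparison left out, made up 3.69% of the LFD BAT-Exos total and 1.26% of that of LFD vWAT-Exos, with 203 and 123 of 785 such sequences at 10 or more. On HFD they made up 3.47% and 1.33%.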

How the results depend on the processing

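The counts of 71 miRNAs higher in vWAT-Exos and 89 in BAT-Exos became 148 and 40 as shares, 126 and 54 with the most abundant sequence of each library left out of the total, 132 and 146 with a floor of 10, 45 and 57 with 100 in both libraries, and 24 and 47 at 4-fold. They were 86 and 78 with medians centred, 103 and 115 at 1.5-fold, 52 and 79 where the counting interval excluded 2-fold, 85 and 122 with all listed sequences, and 94 and 99 in the HFD pair. The depot counts over both diets by limma, 33 and 67, became 79 and 109 with a pseudocount of 10 and 0 and 0 without a filter on low values, where 70 and 108 had an unadjusted p under 0.05, and the BAT count became 25 as shares. With 1 library left out they ranged from 0 to 22 (12 without the HFD BAT library) and from 0 to 58. As shares, 9 of the 89 miRNAs called higher in BAT-Exos lay on the other side of 0, at log2 values up to 0.13, among them miR-125a-5p at 0.12, miR-495-3p at 0.063, let-7b-5p at 0.063, miR-25-3p at 0.060, miR-16-5p at 0.094 and miR-152-3p at 0.080. So did the medians of the miR-125 family (-1.01 by norm value and 0.12 by share) and of miR-148 with miR-152 (-1.05 and 0.080). The same held for other epithelial miRNAs (-0.87 and 0.26), the hepatic list (-0.33 and 0.79) and miR-99 with miR-100 (-0.35 and 0.77). It also held for the miR-29 family (-0.16 and 0.97), miR-23 with miR-27 and miR-24 (-0.50 and 0.63) and miR-15 with miR-16 (-0.41 and 0.72). No paired analysis was possible because each group has 1 library and the labels carry no replicate numbers. The depots were matched by diet alone, as a term of the limma fit, and the counts without it were 36 and 63. Depth limits the values under about 10 reads, such as that of miR-196a-5p in BAT-Exos, and the value of 1 read is least secure in vWAT-Exos.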
